A study of Bos taurus with 12 samples.

Results

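The sites described here are cytosines at which the methylation of every one of the study's 12 cows lay in 1 of 3 set ranges, with all 3 ranges in use. They were chosen from the deposited table by their values: autosomal rows with a value in all 12 cows, in which every cow was under 10% (low), from 35 to 65% (middle) or over 90% (high) methylated, and in which all 3 levels occurred. The rule took 8,716 of the 216,990 deposited cytosines (4.02%), or 5.01% of the 174,010 autosomal rows with 12 values. With both strands of a CpG counted once, these were 8,302 CpGs. Because the levels chose the sites, level counts and group differences are given as descriptions. The limma p-values given below measure only the spread among these cows, on rows already selected for a group difference.

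Blood DNA came from 12 Bos taurus dairy cows, aged 3 to 8 years, that lived on 1 farm under the same conditions. The 6 subfertile cows were later culled for reproductive complications that had not been identified when blood was drawn, and the 6 fertile cows were still in the herd with no fertility problem a year later. The labels name no treatment and no cell sorting, so each value is an average over all blood cells of 1 cow, and methylation of 1 copy in every cell cannot be told apart from a mixture of methylated and unmethylated cells. The group of a cow was taken from the labels through its number; with the letters F and R of the deposited columns read in reverse, all directions below would be exchanged. The authors had kept in the table only rows that differed between the groups, with absolute differences from 25.003 percentage points and q-values up to 0.01. From 0.669% to 4.88% of the table's values were missing per cow, and the reads behind a value are unknown.

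In mammals, methyl groups sit mainly on the cytosine of CpG, on both strands, and are copied to the new strand after DNA replication. A CpG that is methylated on only one of the parental copies reads near the middle, and a CpG whose state follows the DNA sequence nearby can read low, middle or high according to the copies an animal carries. Conversion chemistry reads a cytosine-to-thymine difference in the DNA itself as an unmethylated call, so such a difference gives the same 3 levels. The DNA sequence of these cows was not analysed here, and the part of sequence differences in the 3 levels was not tested.

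The rule admitted no value outside the 3 ranges, so their separation is not a finding. Of the 36,761 low values, 98.8% were exactly 0. The 34,723 high values had a median of 100%, with 72.6% of them exactly 100. With few reads a value can be under 10% only at 0, and over 90% only at 100. The shares at exactly 0 and 100 thus depend on the bounds and on the unknown depth. The 33,108 middle values averaged 49.2 ± 8.16% (SD over values), with a median of 50% and quartiles of 42.9 and 55.6%. The bounds cut through the spread of the middle and high values rather than falling in a gap. In 4,541 sites (52.1%) at least 1 value lay within 2 percentage points of a bound, the closest being 9.52% among low, 35 and 65% among middle, and 90.5% among high values. A further 19,383 autosomal rows had 11 cows at a level and 1 outside, with outside values from 10 to 34.8% and from 65.2 to 90%. In 31.1% of those rows the outside value was within 2 points of a bound.

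The 12 cows used the 3 levels in similar proportions. The share of sites at the middle level ran from 26.5 to 35.4% in the subfertile cows (median 31.9%) and from 29.6 to 34.2% in the fertile cows (median 31.1%). The share at the low level ran from 34.0 to 37.9% and from 34.3 to 36.0%, and the share at the high level from 30.1 to 35.6% and from 30.6 to 35.8%. The 2 groups overlapped for every level. Subfertile cow 6 had the fewest middle values (26.5%) and the most low values (37.9%) of all 12 cows.

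**Figure D1:**
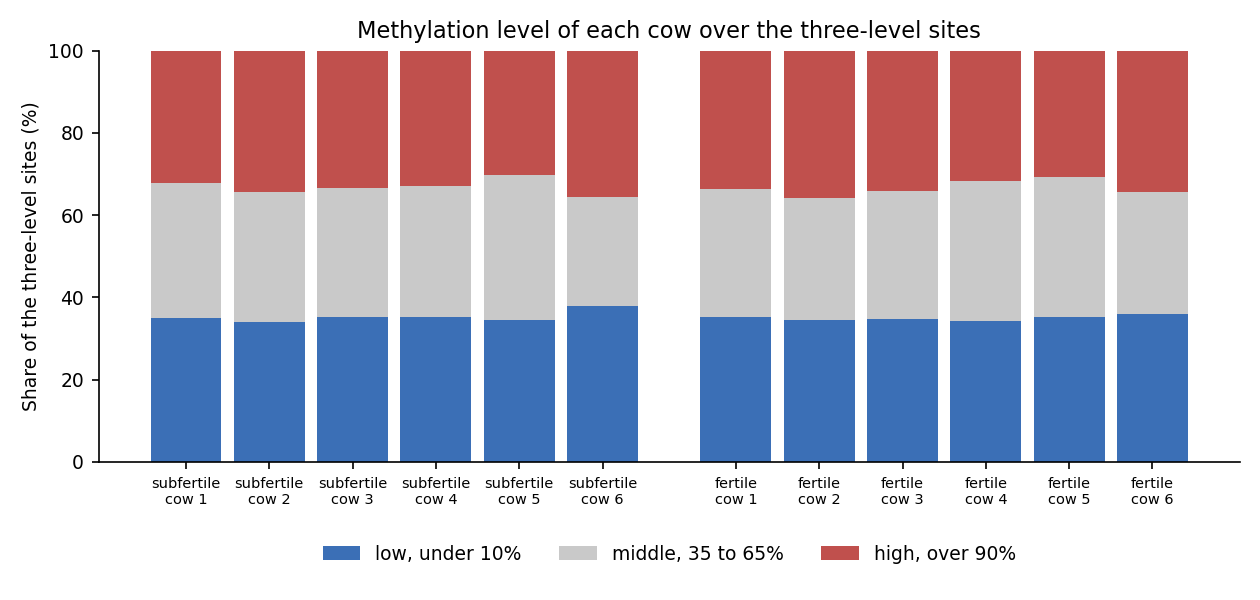
Stacked bars give, for each of the 6 subfertile and 6 fertile cows, the percent of the 8,716 sites at the low, middle and high level. Each level takes between 26.5 and 37.9% of the sites in every cow, and the shortest middle segment is that of subfertile cow 6.

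A site had on average 4.22 low, 3.80 middle and 3.98 high cows. These counts are those of the values that chose the sites and of rows selected for a group difference, so they were not set against the counts that genotypes would give.

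By group, the commonest make-up was 6 low subfertile cows beside 3 low, 2 middle and 1 high fertile cow, in 240 sites (2.75%). Next came 237 sites with 2 low, 3 middle and 1 high subfertile cow beside 5 low and 1 middle fertile cow. In all, 357 group make-ups and 4,713 distinct patterns over the 12 cows occurred. All 6 subfertile cows shared 1 level at 1,030 sites (11.8%), which was low at 521, high at 505 and middle at 4. All 6 fertile cows did so at 929 sites (10.7%), of which 495 were low, 431 high and 3 middle. A group with every cow at the middle level was thus seen at 7 sites in all. All 3 levels were present within the subfertile cows alone at 4,227 sites (48.5%), within the fertile cows alone at 4,073 (46.7%), and within each group at 524 (6.01%).

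Counting low as 0, middle as 1 and high as 2 steps, the summed levels of the 2 groups differed by a median of 4 steps. The commonest differences were 3 steps (25.5% of sites), 4 (39.3%) and 5 (21.5%), and the largest was 9, at 5 sites, out of a possible 12. The median absolute deposited difference was 34.9 percentage points, beside 34.7 in the whole table. The selection by the authors sets the lower end of these values.

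The subfertile cows were higher at 4,317 sites (49.5%), against 52.1% of the whole table. The groups did not overlap at 71 sites (0.815%), against 3.1% of the whole table and 2.67% of its autosomal rows with 12 values. At 33 of the 71 the subfertile cows were the higher group (0.379%, against 1.94% of the whole table). The rule demands that all 3 levels occur, which limits such sites, so nothing is read from this count. In the limma fit over all deposited rows, on log2 of (percent + 5)/(100 − percent + 5), 0 of the sites reached an adjusted p of 0.05 or less (smallest limma adjusted p 0.0659), and 0 of the whole table did. At an unadjusted p under 0.05 limma gave 4,784 sites (54.9%), beside 52.7% of the whole table and 52.2% of its autosomal rows with 12 values. On plain percent values 62 sites (0.711%) reached a limma adjusted p of 0.05 or less, beside 0.479% of the whole table. The unadjusted share was near that of the table from which the sites were drawn. The share on plain percent values was above that of the table, and no test was made of this difference.

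The second strand of a CpG is a separate reading in the same cow. It was deposited for 5,078 of the sites (58.3%), compared with 45.7% of all autosomal rows with 12 values and 45.1% of the 3,328 autosomal rows in which the cows took 2 of the 3 levels. In 4,302 cases it had a value in all 12 cows, and in 828 of these it was itself a three-level site, so that the rule had also taken its values and the CpG enters the shares below from both sides. The deposited difference had the same sign on both strands at all 5,078. This is a subset in which the authors' selection was passed on both strands.

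Where the site was low, the other strand had a median of 0% and 99.3% of its 18,082 values were low too. Where the site was high, the other strand had a median of 100% (quartiles 92.9 and 100%) and 85.2% of 17,026 values were high. Where the site was middle, the other strand had a median of 47.1% (quartiles 38.5 and 57.1%), and 70.7% of 16,516 values lay from 35 to 65%. Nearly all of the remaining middle values, 28.7% of the total, lay between levels and not at another one. Over all 51,624 values, 85.5% were at the same level, 14.1% between levels and 0.418% at another level, and 0 were at the opposite end. Where the other strand was not itself a three-level site, 82.2% of 41,688 values were at the same level and 17.4% between levels. Those strands had missed the rule, so neither share is free of it. On the other strand of middle sites the mean was 47.9 ± 14.5% in subfertile and 47.7 ± 14.4% in fertile cows (SD over values).

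**Figure D2:**
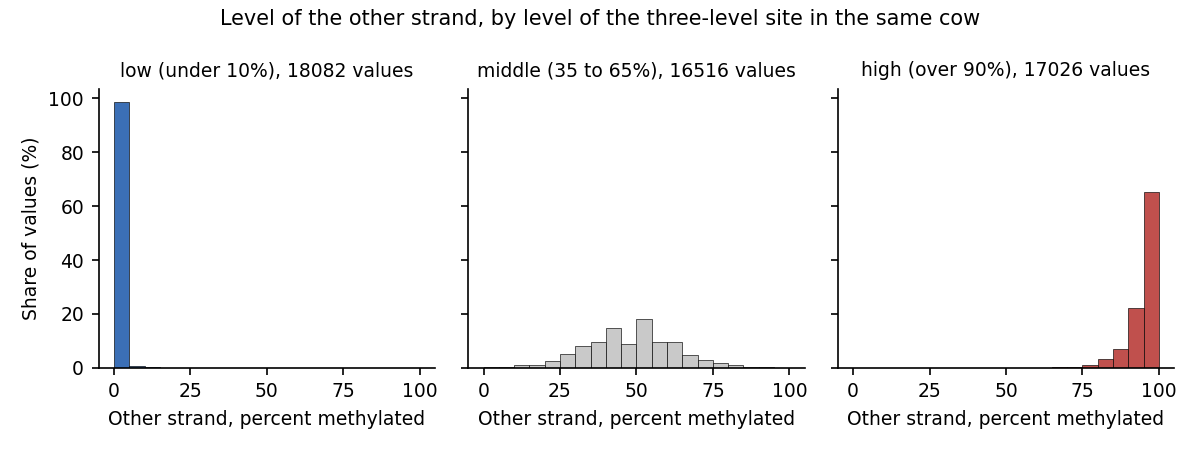
Histograms of the percent methylated on the other strand (x axis, bins of 5 points) as a share of values (y axis), in 3 panels by the level of the site in the same cow. The values gather at 0 for low sites, spread around a median of 47.1% for middle sites and gather near 100% for high sites, with no value at the opposite end.

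Taking all 12 cows together, both strands had the same 12 levels at 780 of the 4,302 sites (18.1%). A full match requires that the other strand be a three-level site too, so all 780 came from the 828 such cases. Of the 7,262 values of the other strand that lay between levels, 4,740 (65.3%) faced a middle, 2,458 (33.8%) a high and 64 a low value. Across the 12 cows the correlation between strands had a median of 0.97 (quartiles 0.95 and 0.98), beside 0.92 in 29,828 CpGs with both strands complete and neither of them a three-level site. The sites had been chosen for wide spread among cows, which raises a correlation, and both strands share cow and library.

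Neighbouring sites carried the same pattern far more often when they were close. Among 2,189 pairs of neighbouring three-level CpGs at most 10 kb apart, 1,437 (65.6%) had all 12 cows at the same level. Below 100 bp this held for 85.1% of 194 pairs, from 100 bp to 1 kb for 75.9% of 465, and from 1 to 10 kb for 60.1% of 1,530. It fell to 25.5% of 2,710 pairs from 10 to 100 kb, 3.77% of 2,782 from 100 kb to 1 Mb and 1.01% of 592 beyond. Among all 33,033,112 pairs of CpGs on different chromosomes, 0.01004% had identical patterns. On average 10.2 of 12 cows matched between neighbours within 10 kb, and 4.01 between chromosomes.

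Taking every pair on 1 chromosome, neighbours or not, gave the same order. The identical share was 31.3% from 10 to 100 kb, 3.89% from 100 kb to 1 Mb, 0.522% from 1 to 10 Mb and 0.0176% beyond 10 Mb. The share beyond 10 Mb was thus below that of nearer pairs, but still above the 0.01004% of pairs on different chromosomes. These cows are few and of 1 herd, their relationship is not given in the labels, and pairs share cows, so the shares are descriptions of these 12 libraries.

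**Figure D3:**
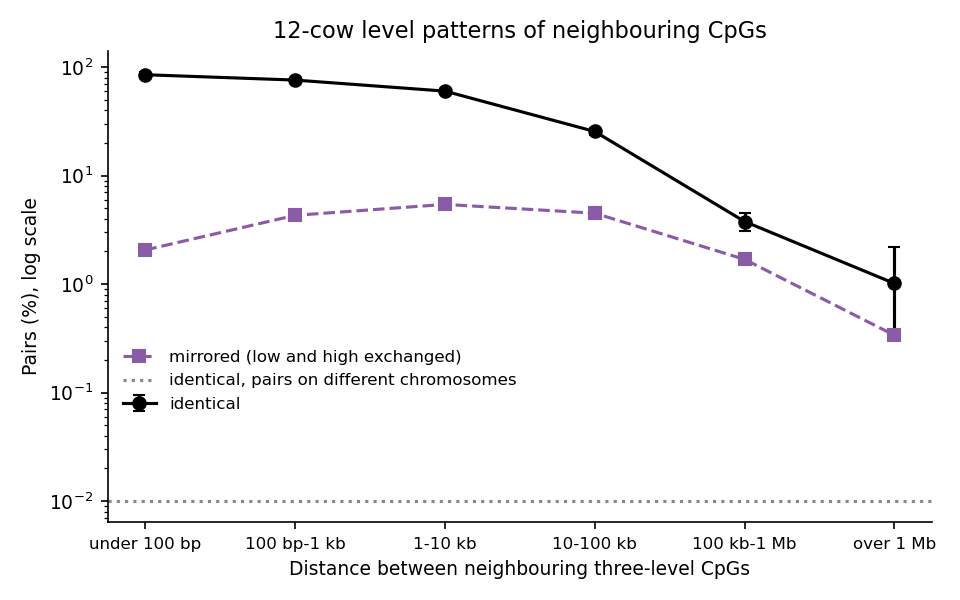
The distance between neighbouring three-level CpGs (x axis) is set against the percent of pairs with identical or mirrored 12-cow patterns (y axis, log scale), with exact 95% binomial intervals on the identical share. The intervals take the pairs as independent, although consecutive pairs share a CpG and all pairs share the same cows, so they are too narrow. The identical share goes from 85.1% below 100 bp to 1.01% beyond 1 Mb, and the dotted line marks the 0.01004% of pairs on different chromosomes.

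Some neighbours carried the mirrored pattern, in which low and high cows exchange places and middle cows stay. This was so for 107 of the 2,189 pairs within 10 kb (4.89%), against 0.0107% of pairs on different chromosomes. Among the 645 remaining pairs that were neither identical nor mirrored, 175 (27.1%) differed in 1 cow. In 97 stretches of consecutive sites, holding 269 CpGs, both orientations occurred side by side.

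The stretch with the most CpGs of both orientations lay at DEPDC1B on chromosome 20 (build ARS-UCD1.2, 18,561,705 to 18,603,752), with 6 CpGs of one orientation and 2 of the other. DEPDC1B carries a DEP domain. At the 6 CpGs, fertile cow 5 was at 100% and 8 other cows were at 0% at every CpG. Subfertile cow 4 and fertile cows 4 and 6 averaged 47.0, 54.7 and 52.8%. At the other 2 CpGs fertile cow 5 was at 0%, the same 8 cows averaged from 97.2 to 100%, and the same 3 cows averaged 51.9, 45.3 and 42.5%. The order of the cows was turned around while the 3 middle cows remained in place. The 2 orientations have opposite signs of group difference, 6 CpGs lower and 2 higher in subfertile cows. Other such stretches lay in DENND5B (6 and 1 CpGs), ITPR1, which encodes a calcium release channel (4 and 2), SIPA1L1 (3 and 2) and PRKAG2, a subunit of AMP-activated kinase (3 and 2); these were chosen after their values were seen.

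Consecutive three-level CpGs with identical patterns and gaps of at most 10 kb were joined into runs. There were 905 runs of at least 2 CpGs, holding 2,342 CpGs (28.2%) with a median span of 3,291 bp. Of these, 291 runs had at least 3 CpGs and a median span of 7,071 bp. A further 5,960 CpGs stood alone. Counting each run once, the subfertile cows were higher in 146 of the 291 runs of 3 or more CpGs and in 2,934 of the 5,960 single ones.

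The longest run held 20 CpGs over 53,094 bp of chromosome 2 (71,147,221 to 71,200,314), with 14 CpGs in introns, 4 in promoters and 2 between genes. It covered C2H2orf76, an uncharacterised open reading frame, and its neighbour DBI, which encodes an acyl-CoA-binding protein. Over these CpGs subfertile cows 1 and 3 averaged 97.3 ± 3.84 and 99.3 ± 2.13% (SD over CpGs), and subfertile cows 2 and 6 averaged 49.1 ± 8.73 and 53.4 ± 7.65%. Subfertile cows 4 and 5 were at 0% at every CpG. Fertile cow 2 averaged 98.9 ± 2.67%, and the other 5 fertile cows averaged between 0 and 0.417%. Both groups hold high and low cows, so the groups overlap fully although the mean deposited difference was 33.2 points. The same pattern was found at 31 CpGs between 71,035,723 and 71,200,314, and at none on any other chromosome.

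**Figure D4:**
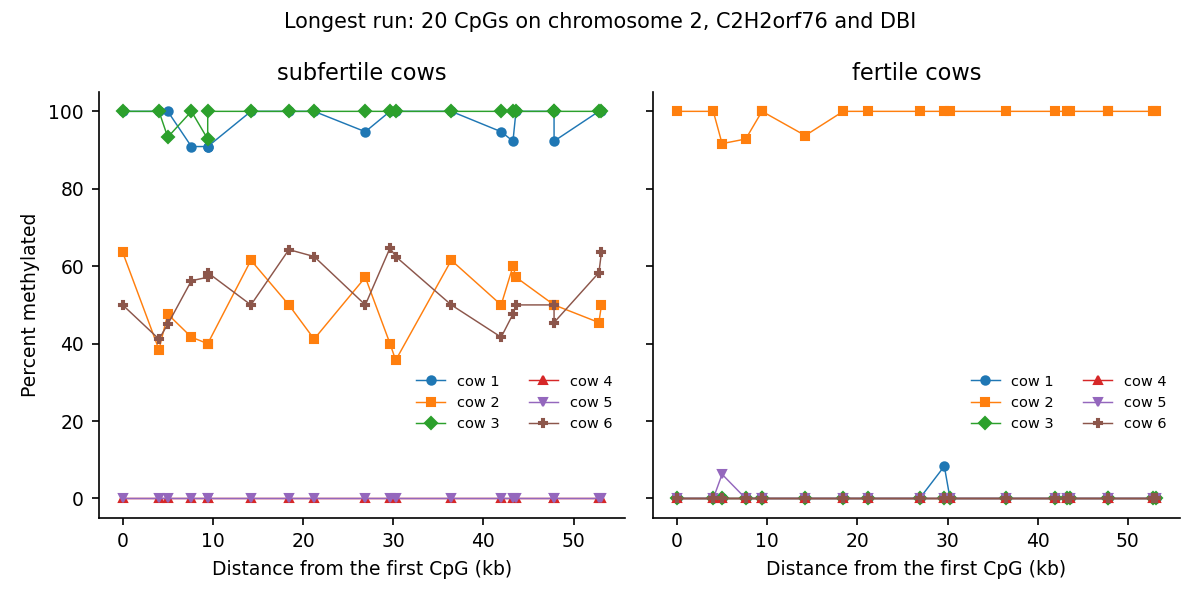
Percent methylated (y axis) at the 20 CpGs of the longest run, by distance from its first CpG (x axis, kb), with 1 line per cow and 1 panel per group. Each cow stays at its level over 53,094 bp: subfertile cows 1 and 3 and fertile cow 2 near 100%, subfertile cows 2 and 6 near 50%, and all others at or near 0.

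The next runs in length, 3 in all, held 11 CpGs each. The first lay over 27,848 bp at TNFSF11 on chromosome 12 (12,696,631 to 12,724,478), the gene of RANK ligand, a cytokine needed for osteoclasts and mammary gland development. Subfertile cow 4 averaged 97.9 ± 3.02% and subfertile cow 6 averaged 50.8 ± 6.87%, while the other 10 cows were at 0% at each of the 11 CpGs. The group difference there rests on 2 subfertile cows. The second lay over 17,335 bp between genes on chromosome 2 (118,472,832 to 118,490,166), nearest to CAB39, which encodes a scaffold of the LKB1 kinase. Its mean deposited difference, -50.8 points, was the largest of the 10 longest runs. Subfertile cows 2, 5 and 6 were at 0%, subfertile cow 4 averaged 51.6 ± 11.2%, and subfertile cows 1 and 3 were at 100%. Of the fertile cows, cow 5 averaged 46.3 ± 9.54%, and the other 5 averaged between 97.3 and 98.9%.

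The last of the 3 lay over 16,193 bp in introns of FSTL4, a follistatin-like gene, on chromosome 7 (45,082,310 to 45,098,502). Subfertile cow 4 averaged 95.6 ± 3.62%, subfertile cows 1, 3 and 5 averaged 47.3 ± 7.65, 45.2 ± 6.35 and 51.8 ± 7.83%, and the 8 other cows averaged 0.826% or less. Every fertile cow was low, and so were subfertile cows 2 and 6, so the groups overlapped at the low level.

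The remaining runs among the 10 longest held 9, 8 or 7 CpGs. One lay in introns of RAD51B, a gene of DNA repair by homologous recombination (chromosome 10, 79,680,262 to 79,696,579, mean difference -42.8 points). There 4 fertile cows averaged from 97.7 to 99.4% and fertile cows 4 and 6 averaged 54.8 and 51.3%, while the subfertile cows took all 3 levels. Another, of 8 CpGs, lay at LRRC8A, a subunit of the volume-regulated anion channel, with 4 CpGs in promoters, 3 in introns and 1 between genes (chromosome 11, 99,386,813 to 99,401,219, mean difference -33.5 points). All 6 subfertile cows were low there, fertile cow 4 averaged 98.1 ± 3.60%, fertile cows 1 and 5 averaged 48.4 ± 8.43 and 46.5 ± 6.86%, and the other 3 fertile cows were at 0%. In introns of WDR76 (chromosome 21, 55,453,300 to 55,481,046, mean difference 39.1 points), all 6 subfertile cows averaged from 97.5 to 100%. The fertile cows there took all 3 levels, with cow 3 at 0% and cows 2, 5 and 6 averaging 54.3, 47.2 and 42.7%.

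The last 3 runs lay between genes. That nearest to IRX5, a homeobox gene, on chromosome 18 (23,258,044 to 23,285,824) had a mean difference of 43.2 points. Its subfertile cow 2 averaged 98.3 ± 2.94%, cows 1, 3 and 4 averaged 55.9, 48.0 and 48.9%, and all fertile cows were low. On chromosome 11, the run nearest to FABP1, a fatty acid-binding protein gene, and THNSL2 (47,898,541 to 47,911,469) had a mean difference of -32.9 points, and the run at 88,907,994 to 88,922,204, with no gene symbol nearby in the table, had -38.1 points. At the former, only subfertile cow 1 of its group was off the low level, with 50.2 ± 7.66%. At the latter, only subfertile cow 3 was, with 47.0 ± 8.17%.

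Most rows inside the runs that the rule had not taken still followed the run's pattern. In the spans of the 291 runs of at least 3 CpGs lay 2,274 other rows with 12 values. Their correlation with the run's levels over the 12 cows had a median of 0.97 (quartiles 0.94 and 0.98). It was over 0.9 at 1,960 rows (86.2%) and under -0.7 at 90 (3.96%). In the chromosome 2 run 21 of 26 such rows were over 0.9. The run near FABP1 held 15 rows over 0.9 and 5 under -0.9, so both orientations were present there as well. The WDR76 run stood apart from the other 9 in having a median of 0.195, with 8 of 16 rows over 0.9. All of these rows come from the same cows and libraries as the runs and had passed the same selection by the authors. Other strands of the runs' own CpGs were not set apart from them. Part of this match may therefore repeat the strand comparison above.

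How often a pattern recurred elsewhere depended on its variety. Of the 8,302 CpGs, 5,053 (60.9%) shared their pattern with another CpG. Of the 12,215 pairs with identical patterns, 58.8% lay within 1 Mb of each other, 14.0% farther apart on 1 chromosome and 27.1% on different chromosomes. Where only 2 cows departed from the commonest level, 88.7% of CpGs had a pattern that also occurred on another chromosome. Where 5 cows departed it was 14.99%, and where 7 departed it was 4.55%. Far fewer patterns are possible where 2 cows depart, which by itself makes recurrence more frequent, and no expected share was computed. An example is the pattern with fertile cow 1 low, fertile cow 2 middle and the other 10 cows high, which was found at 29 CpGs on 5 chromosomes, 19 of them on chromosome 10 over 5,625,541 bp.

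Cow against cow, with each run counted once (6,865 patterns), pairs of subfertile cows were at the same level at 45.6 to 49.8% of patterns (median 46.8%). Pairs of fertile cows were so at 44.5 to 52.4% (median 46.8%), and pairs across the groups at 30.5 to 41.6% (median 36.2%). Selection for a group difference lowers the match across groups, so only pairs within a group are set side by side. Fertile cows 4 and 5 matched most often, at 52.4%, and were at opposite ends at 3.83% of patterns. Subfertile cows 1 and 3 followed with 49.8% and 7.94%.

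In position, 3,787 sites (43.4%) lay in introns, 4,186 (48.0%) between genes, 569 (6.53%) in promoters, 122 in exons, 47 in 3′ untranslated regions and 5 downstream of genes. Among all autosomal rows with 12 values 35.8% were intronic and 57.2% intergenic. Rows at 2 of the 3 levels had 43.2 and 48.5%, close to the three-level sites. The median distance to the nearest transcription start was 32,995 bp, beside 32,808 bp at rows with 2 levels and 44,324 bp at all autosomal rows with 12 values. No other deposited row lay within 1 kb of 21.7% of the sites, beside 31.0% and 31.8%. No test was made of these differences.

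Of the CpGs, 3,896 (46.9%) lay in 1,902 genes with a symbol, and 1,160 of these genes held only 1. EXOC4, of the exocyst complex, held 26 CpGs with 14 patterns, 25 of them higher in subfertile cows. FBXL17, an F-box gene, held 23 with 8 patterns, and FHIT held 18 with 13. C2H2orf76 held 19 with 1 pattern. PCCA, a subunit of propionyl-CoA carboxylase, which takes part in the use of propionate by ruminants, held 19 with 4 patterns, 9 higher and 10 lower. DOCK10, a guanine nucleotide exchange factor, held 16 with 8 patterns, FSTL4 held 15 with 3, AP3B1, of the AP-3 adaptor complex, 14 with 6 (13 lower), and DIP2A 14 with 5 (11 lower). DENND1A, named as a candidate gene of polycystic ovary syndrome in women, held 15 CpGs with 3 patterns, all higher in subfertile cows. Genes with 15 to 19 CpGs thus ranged from 1 to 13 patterns, and a count of CpGs in a gene is not a count of separate differences. Deposited rows numbered 218 in EXOC4, 277 in FBXL17, 331 in FHIT, 56 in C2H2orf76 and 148 in PCCA. They numbered 112 in DOCK10, 61 in DENND1A, 132 in FSTL4, 135 in AP3B1 and 76 in DIP2A. A high count of CpGs is therefore not in itself a high share of a gene's rows.

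The largest single differences were taken from the deposited values, among sites with a gene symbol. PPP2R3A, a regulatory subunit of protein phosphatase 2A, had an intron site (chromosome 1, 133,296,683) at 100, 92.3, 100, 93.3, 100 and 56.2% in subfertile cows 1 to 6 and at 0, 0, 0, 57.1, 35.7 and 0% in fertile cows 1 to 6. The means were 90.3 ± 17.1 and 15.5 ± 24.9% (SD, n = 6). Only the middle level held cows of both groups. On the other strand 11 of the 12 cows were at the same level. TMCC1, on chromosome 22 (56,050,662, intron), had 100% in 5 subfertile cows and 50% in cow 3, and 0% in fertile cows 1, 2, 3 and 5 with 50 and 45.5% in cows 4 and 6; all 12 levels were the same on the other strand.

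RAP2A, a small GTPase of the Ras family, had a promoter site (chromosome 12, 74,630,509) at 100% in 4 subfertile cows, 61.5% in cow 3 and 0% in cow 5. Its fertile cows were at 0% except cow 2, at 62.5%, so the groups overlapped through subfertile cow 5. The sites nearest to LOC112443598 (74.3 ± 26.2 against 0% in every fertile cow) and LOC512119 (74.7 ± 26.2 against 7.69 ± 18.8%) completed the 5 largest positive differences. In the other direction, an intron site of TAMM41, an enzyme of cardiolipin synthesis in mitochondria (chromosome 22, 55,810,182), averaged 21.2 ± 23.4 against 92.1 ± 16.004%, with the 3 highest subfertile cows at 36.4, 44.4 and 46.2% and the lowest fertile cow at 60%. An intron site of OIT3 (chromosome 28, 28,918,196) was at 0% in all subfertile cows and averaged 70.4 ± 23.5% in fertile cows. The groups did not overlap at either, although at the TAMM41 site both held cows at the middle level. Sites near LOC112448179 and BRINP1 and in LOC615853 completed this direction. A larger negative difference than any of these, -73.7 points, was at an intron site without a gene symbol (chromosome 22, 45,828,747). Its means were 19.2 ± 21.1 against 91.6 ± 14.1%. The groups did not overlap there, although both held cows at the middle level. Limma adjusted p-values of the 10 sites with a symbol lay from 0.0659 to 0.0661.

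Of the genes in 9 lists of blood cell, immune, imprinted, DNA methylation and reproductive hormone genes, 58 had an autosomal row with 12 values and 12 held a three-level site. They held 23 such sites among 551 rows (4.17%), beside 5.01% of all autosomal rows with 12 values. The genes of the natural killer cell list, which does not include KIR3DL1, had none among 12 rows. The B cell list held 6 among 170 rows (3.53%), all higher in subfertile cows. They were in BANK1, a B cell scaffold, and BLNK, an adaptor of B cell receptor signalling. The monocyte and neutrophil list held 3 among 51 rows (5.88%), in LTF, the lactoferrin gene. These counts are small, and nothing is read from their direction. Imprinted genes, whose parental copies differ in methylation, held 7 sites in INPP5F, KCNQ1 and PLAGL1 among 126 rows (5.56%). The other lists had ZAP70, TET3 and FSHR with a site outside the promoter.

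Promoter sites of listed genes were found in BOLA-DRB3, KIR3DL1 and GNRH1. In the class II histocompatibility gene BOLA-DRB3 (chromosome 23, 25,721,814) 5 subfertile cows were at 0% and cow 5 at 41.7%, while fertile cows 2, 4 and 6 had 90.9, 42.1 and 93.3% and the other 3 had 0%. KIR3DL1, a receptor of natural killer cells (chromosome 18, 62,561,593), averaged 11.5 ± 19.2 against 47.9 ± 41.7%. GNRH1, the gene of gonadotropin-releasing hormone (chromosome 8, 72,738,595, upstream of the start), had 36.4, 0, 54.5, 92.9, 50 and 0% in subfertile cows 1 to 6 and 100, 43.8, 100, 100, 40 and 50% in fertile cows 1 to 6. Both groups spanned the middle and high levels, and limma adjusted p-values were 0.117, 0.0902 and 0.0869 for the 3 genes. BOLA-DRB3 and KIR3DL1 belong to families of similar genes, so the placement of reads is uncertain there.

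The 71 sites at which the groups did not overlap lay on 24 autosomes. At ST14, the matriptase gene on chromosome 29, 3 intron sites (36,356,378, 36,357,476 and 36,357,679) shared 1 pattern, with means of 76.7 ± 25.6, 78.8 ± 23.7 and 78.9 ± 20.9% in subfertile and 13.8 ± 21.4, 13.8 ± 21.5 and 15.3 ± 23.8% in fertile cows. No subfertile cow was low and no fertile cow was high, but both groups held cows at the middle level. The groups were thus kept apart there only by the order of values within that level, at unknown depth. With levels compared and ties counted as overlap, 15 of the 71 sites remained, and the ST14 sites were not among them. The ST14 sites were chosen after their values were seen.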

How the data were processed

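DNA from 1 mL of blood per cow was sequenced after enzymatic conversion of unmethylated cytosines, per the labels' protocols. Bismark, DRAGEN, fastp 0.23.1 and ChIPseeker 1.32.1 are named in the submitters' processing notes, with ARS-UCD1.2 as the build. The sources used here do not give the authors' test of the rows or their read minimum. In the deposited table stand the percent methylated per cytosine and cow, and the authors' group difference in percentage points, p-value and q-value, per the file headers. Read counts are not in the table, so depth and the precision of single values are unknown, and the logistic model foreseen for reads was not used.

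Levels were set at under 10, 35 to 65 and over 90%. Rows on opposite strands at adjacent positions were paired as 1 CpG, and the plus strand was kept where both were members. Sites inside introns and exons were given the gene named in the deposited annotation, other sites the nearest gene. Limma 3.58.1 in R 4.3.3 was fitted over all rows, with a single term for group, p-values were adjusted by Benjamini-Hochberg, and the fit was tested on simulated data; counts were made in Python 3.11.15. Labels do not say how the animals were related, and p-values measure only the spread among these cows, on rows selected for the same contrast.

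Named items were the 10 runs with the most CpGs (ties by span), the 5 largest differences in each direction among sites with a gene symbol, 1 per gene, the 10 genes with the most CpGs, and promoter sites of listed genes; any named outside this rule are said to be. Members and lists were chosen with earlier results of these data known. Alternatives covered the level bounds, the number of values, the gap, merging of strands and the scale of the fit. No genome sequence was used here, so no sequence context is given.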

Additional observations from a re-analysis of the deposited data

Results flagged for a closer look

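In each group of 6 cows, the highest or lowest value was compared with the rest by Dixon's criterion. For normally distributed values, chance alone meets it in about 1 of 20 groups. Over 28 groups (4 per-cow summaries and the 10 longest runs, in both groups), 8 met it. Subfertile cow 6 had 37.9% of the sites at the low level, with the next subfertile cow at 35.2%.

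The other 7 were run means. In 4 of them a single cow was off the level of its group, which meets the criterion by construction of the 3 levels; in the other 3 the cow was low like the rest of its group, and a single value above 0 beside 5 means of 0 meets it. In the C2H2orf76 and DBI run fertile cow 2 averaged 98.9%, with the next fertile cow at 0.417%. In the run near CAB39 fertile cow 5 averaged 46.3%, with the next at 97.3%. In the run at 88,907,994 on chromosome 11 subfertile cow 3 averaged 47.0%, and in the run near FABP1 subfertile cow 1 averaged 50.2%, with all other subfertile cows at 0% in both. In the FSTL4 run fertile cow 6 averaged 0.826%, in the LRRC8A run subfertile cow 1 averaged 1.14%, and in the run near IRX5 fertile cow 2 averaged 1.10%, each beside 5 cows at 0%.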

How the results depend on the processing

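The number of three-level sites depends on the bounds: 1,216 with narrower and 33,251 with wider bounds, against 8,716, while at least 11 values, all chromosomes or merged strands kept it within 1.5 times. The strand share of 18.1% became 6.74% with narrower bounds, 33.5% with wider ones and 6.997% when every cow had to agree within 10 points. The neighbour share of 65.6% became 80.8 and 49.0% with narrower and wider bounds, 78.6% within 1 kb, 43.4% within 100 kb, 70.1% with strands not merged, 70.5% with mirrored patterns counted and 73.6% when 11 of 12 cows sufficed. The share higher in subfertile cows was 48.1% with narrower bounds. Non-overlapping sites fell from 71 to 15 when levels were compared with ties as overlap. Limma called 62 sites on plain percent values, against 0 with 5 or 1 points added. The cause of these shifts was not tested. Leaving out each cow in turn, chosen after the data were seen, gave 20.01 to 21.4% for strands and 65.8 to 66.7% for neighbours. The sites and pairs stayed those chosen with all 12 cows, and only the matching left a cow out. The shares could thus only stay at or rise above 18.1 and 65.6%, so nothing is read from them. No paired analysis was possible because the labels give no numbers shared between the groups. Unknown depth limits how sharply a middle value can be told from a value between levels.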

Other observations

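The share of autosomal rows with 12 values that were three-level sites ran from 3.77% on chromosome 8 (378 of 10,023) to 7.57% on chromosome 16 (239 of 3,159). On chromosome 11 it was 6.14% and on chromosome 10 it was 5.90%. These values were looked up after the data were seen, and no test was made of them.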
